A study of Mus musculus with 20 samples.

Results

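Aortas of mice that had eaten rosiglitazone for 14 days were compared with aortas of mice that had eaten it for 2 days, at each of 2 doses. The comparison used 11 of the 20 arrays in the series, the 5 labelled 14 days and the 6 labelled 2 days. All 11 came from adult C57BL/6J mice that carried no engineered allele and received the drug in their chow at 3 or 10 mg/kg/day. There were 3 arrays at 3 mg/kg/day for 2 days, 3 at 3 mg/kg/day for 14 days, 3 at 10 mg/kg/day for 2 days and 2 at 10 mg/kg/day for 14 days. Each array held the pooled RNA of 8 aortas, and the p-values therefore measure the spread between pools. The 3 arrays of mice on plain chow are given for reference only. Their labels name no feeding time, so the duration of treatment cannot be told apart from the age of the mice or the day of harvest.

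Rosiglitazone is a thiazolidinedione that binds PPARγ, a nuclear receptor that pairs with an RXR receptor on DNA and switches on genes of lipid uptake, storage and oxidation in fat cells. The aorta holds smooth muscle, endothelium and an adventitia of fibroblasts, carries fat around it, and contains blood unless it is washed out. Young red blood cells, the reticulocytes, have lost their nucleus but keep messenger RNA for haem synthesis, haemoglobin and membrane proteins until they mature. Whole-aorta RNA holds the messages of all these cells, and fewer cells of a type and less RNA per cell cannot be told apart.

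A longer treatment went with a small number of differences, all in 1 direction. Of 11081 genes tested, 7 were lower at 14 than at 2 days and 0 were higher at an adjusted p under 0.05, which is 0.0632 percent of the genes (limma, Benjamini-Hochberg over all genes). An unadjusted p under 0.05 was reached by 375 genes, 162 higher and 213 lower, where 554 would be the count for uniform p-values. The median difference over all genes was -0.001 on the log2 scale. The 7 genes were Isg20, Mkrn1, Alas2, Slc25a37, Bpgm, Slc4a1 and Ube2c. Alas2, Slc25a37, Bpgm and Slc4a1 have well-known roles in red blood cells: the first step of haem synthesis, iron import into mitochondria, control of oxygen release from haemoglobin, and anion exchange across the red cell membrane. Isg20 encodes an exonuclease that degrades RNA, Mkrn1 a RING-type ubiquitin ligase, and Ube2c the ubiquitin-conjugating enzyme of the anaphase-promoting complex.

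The promoters of these genes are shown because the 7 genes moved together. RefSeq promoter sequences on GRCm38.p6 were matched for 5 of the 7 genes, Isg20, Alas2, Bpgm, Mkrn1 and Ube2c, with 8 transcription starts. The 250 bases before each start were searched on both strands for the word AGATAA, its variant AGATAG, and the same pair with a leading T, written TGATAA or else TGATAG, which are forms of the site bound by GATA factors such as the red cell regulator GATA1. Capitals mark a match. The word was present before 2 of the 8 starts, those of Alas2 and the last listed of Isg20, and in 26.5 percent of all 32851 promoter windows of the same length. A match is a description of the letters and not of binding.
Alas2, chrX:150547167-150547416, plus strand: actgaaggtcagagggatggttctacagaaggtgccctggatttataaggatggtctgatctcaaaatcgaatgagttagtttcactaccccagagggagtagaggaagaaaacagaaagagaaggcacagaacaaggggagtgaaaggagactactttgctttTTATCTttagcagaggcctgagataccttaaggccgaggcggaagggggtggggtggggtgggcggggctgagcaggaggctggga
Isg20, chr7:78913985-78914234, plus strand: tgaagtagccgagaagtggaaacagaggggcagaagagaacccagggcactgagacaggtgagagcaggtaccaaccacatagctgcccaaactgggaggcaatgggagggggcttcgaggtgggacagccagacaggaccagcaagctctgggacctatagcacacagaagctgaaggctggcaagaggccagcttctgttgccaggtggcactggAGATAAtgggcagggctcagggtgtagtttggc
Bpgm, chr6:34476106-34476355, plus strand: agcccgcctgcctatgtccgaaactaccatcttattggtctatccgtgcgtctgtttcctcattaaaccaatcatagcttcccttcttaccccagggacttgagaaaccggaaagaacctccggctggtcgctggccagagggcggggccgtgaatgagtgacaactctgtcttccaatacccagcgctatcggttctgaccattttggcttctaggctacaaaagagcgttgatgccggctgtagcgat
In Alas2 the word begins 86 bases before the start and reads TTATCT on the gene's strand. In Isg20 it begins 33 bases before the start and reads AGATAA. The Bpgm window holds none of the words and is shown beside them for that difference.

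Isg20 gave the smallest p of the comparison. The gene lies on chromosome 7 from 78913396 to 78920396. Its signals, which are linear array intensities, were 6345, 8210 and 7708 at 3 mg/kg/day for 2 days and 4271, 4476 and 4284 after 14 days. At 10 mg/kg/day they were 5966, 5279 and 5308 for 2 days and 3391 and 3188 for 14 days. All 5 arrays at 14 days were below all 6 at 2 days, a separation that 0.18 percent of all genes showed in this direction. The difference, on the log2(signal + 72) scale used for every test, was -0.74 (SE 0.09, 95% interval -0.93 to -0.55, adjusted p = 0.00563). It was -0.75 at the lower dose and -0.73 at the higher. The chow arrays read 7875, 4796 and 4336, with the highest among the 2-day values and the lowest among the 14-day values.

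Alas2, on chromosome X from 150547417 to 150570622, encodes the red cell form of the enzyme that starts haem synthesis. Its signals at 3 mg/kg/day were 40160, 45341 and 44829 for 2 days and 31722, 24277 and 19600 for 14 days. The higher dose gave 38408, 30822 and 25856 for 2 days and 19637 and 16203 for 14 days. Within each dose every 14-day array was below every 2-day array, while between doses the highest 14-day value, 31722, lay above the lowest 2-day value, 25856. The difference was -0.81 (SE 0.13, adjusted p = 0.0437) and it was -0.81 at either dose. The chow arrays read 43623, 32214 and 29627.

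Slc25a37, also named mitoferrin 1, brings iron into mitochondria for haem synthesis and lies on chromosome 14 from 69241848 to 69285544. Its signals ran from 8412 to 15211 with a median of 12718 at 2 days, and from 3990 to 9504 with a median of 5304 at 14 days. The highest array at 14 days was the first of 3 mg/kg/day, which lay among the 2-day arrays. The difference was -1.11 (SE 0.18, adjusted p = 0.0437), with -0.92 at 3 mg/kg/day and -1.29 at 10 mg/kg/day.

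Bpgm, on chromosome 6 from 34476356 to 34505136, makes the 2,3-bisphosphoglycerate that lowers the oxygen affinity of haemoglobin. Its signals ran from 12569 to 21292 (median 17692) at 2 days and from 8585 to 14470 (median 9319) at 14 days. The ranges overlapped through the first 14-day array at 3 mg/kg/day. The difference was -0.76 (SE 0.12, adjusted p = 0.0437), the same at both doses, and 2 further probe sets of Bpgm gave -0.91 and -0.82.

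Slc4a1, on chromosome 11 from 102348820 to 102365281, encodes band 3, the anion exchanger of the red cell membrane. Its signals ran from 1383 to 3082 (median 1973) at 2 days and from 731 to 1592 (median 1047) at 14 days. Again 1 array of the lower dose at 14 days reached into the 2-day range. The difference was -0.92 (SE 0.15, adjusted p = 0.0458). The other 2 probe sets of the gene gave -1.46 and -0.07, so they differed in size.

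The remaining called genes act in ubiquitin transfer. Mkrn1, on chromosome 6 from 39397804 to 39423299, had signals from 9418 to 16991 (median 14668) at 2 days and from 6334 to 11079 (median 6887) at 14 days. The ranges overlapped, and the difference was -0.87 (SE 0.13, adjusted p = 0.0437), with 5 further probe sets all lower, from -1.02 to -0.20. With the mean of its probe sets the difference was -0.55, which did not pass. Ube2c, on chromosome 2 from 164769929 to 164772902, had signals from 854 to 1635 (median 1411) at 2 days and from 287 to 1032 (median 593) at 14 days. Its difference was -1.11 (SE 0.19, adjusted p = 0.046), and here the highest 14-day array was the second at 3 mg/kg/day. Ube2c was the only called gene among 25 measured cell cycle genes, whose median difference was -0.06 and of which 18 were lower.

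**Figure D1:**
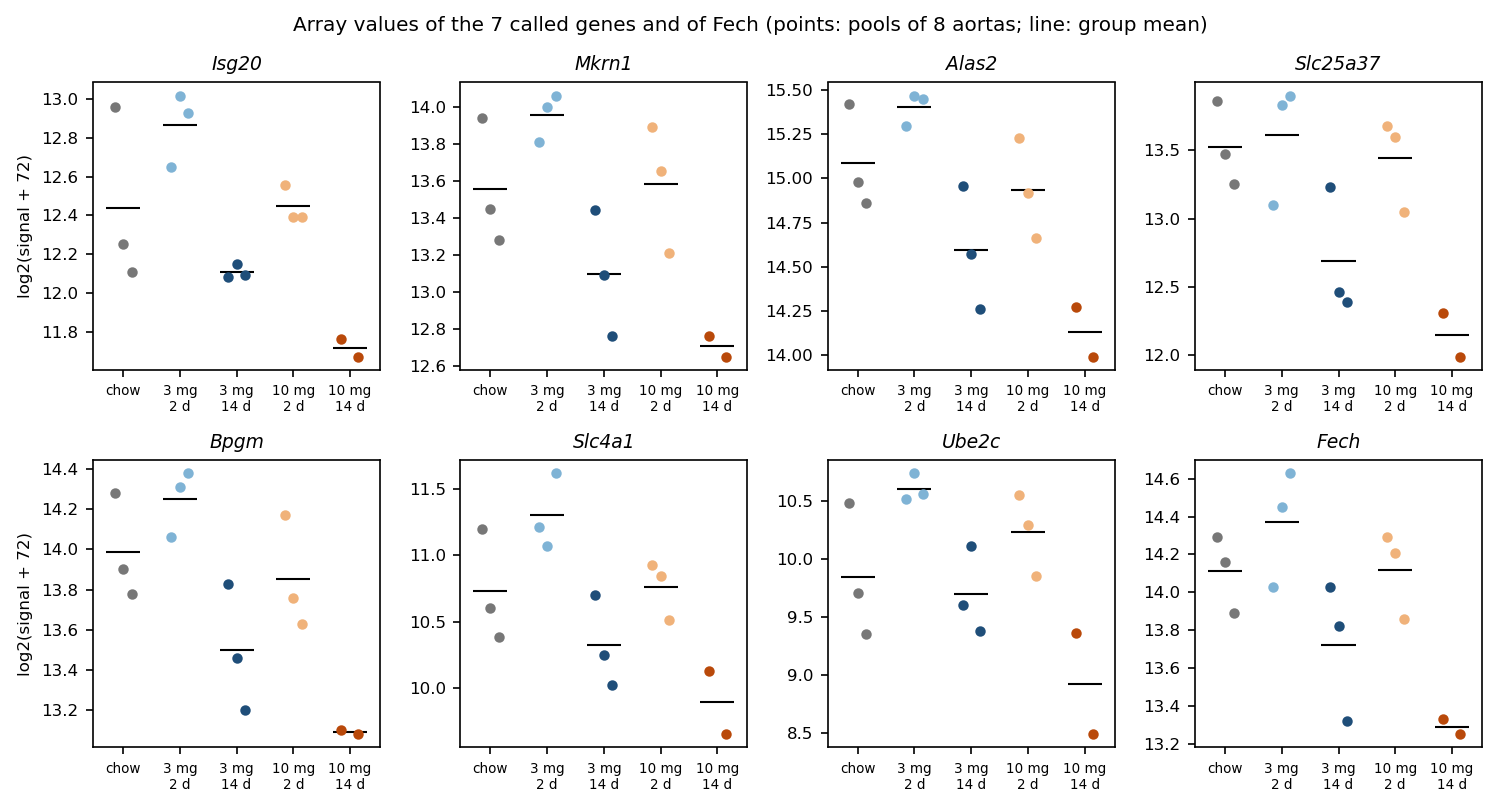
Each panel plots log2(signal + 72) of 1 gene on the vertical axis, with points for single arrays and a line for the mean of the group; the groups are chow, and 2 or 14 days of rosiglitazone at either dose. Within each dose the 14-day mean lies below the 2-day mean in every panel, by 0.75 at 3 and 0.73 at 10 mg/kg/day for Isg20. The chow arrays overlap the 2-day arrays, and for Isg20 and Alas2 they also reach into the 14-day range. Fech did not pass the test.

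The 2 doses share no arrays, but in the fit of 11 arrays they share each gene's estimate of error. At 3 mg/kg/day 0 genes passed the test in limma, with 511 at an unadjusted p under 0.05 and a smallest adjusted p of 0.143. At 10 mg/kg/day 0 passed, with 317 at an unadjusted p under 0.05 and a smallest adjusted p of 0.662. For the interaction of dose and duration 0 genes passed, with 352 at an unadjusted p under 0.05 and a smallest adjusted p of 0.994. Of the 50 genes with the smallest p at each dose, 12 were in both lists, and all 12 were lower at 14 days at both doses. They were the 7 called genes and Fech, Tent5c, Hbb-b2, Car2 and Fam220a. When each dose was fitted on its own arrays, a choice made after seeing the data, the lists of 50 shared 10 genes, all lower at both doses, which were the same 12 without Hbb-b2 and Car2. In those fits 0 genes passed at 3 mg/kg/day, with 342 at an unadjusted p under 0.05, and 2 passed at 10 mg/kg/day, Slc25a37 at -1.29 and Armc8, part of a ubiquitin ligase complex, at -1.30. Among the 50 genes at 3 mg/kg/day, 30 of the 39 lower ones were also lower at 10 mg/kg/day, but 4 of the 11 higher ones were also higher. From the other side, 29 of the 35 lower genes at 10 mg/kg/day were lower at 3 mg/kg/day, and 6 of the 15 higher ones were higher. Over all genes 47.1 percent had the same sign at both doses, and the correlation across genes, which are not independent replicates, was -0.02.

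**Figure D2:**
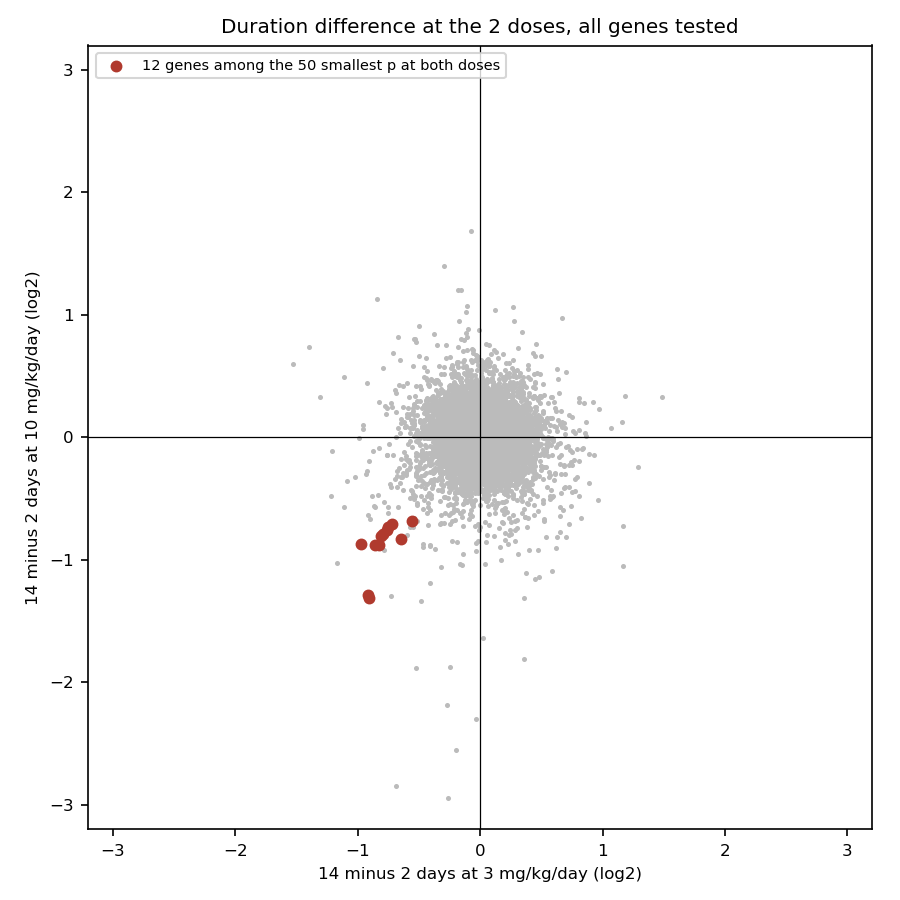
Each grey point is 1 of the 11081 genes, with its difference of 14 minus 2 days at 3 mg/kg/day on the horizontal axis and at 10 mg/kg/day on the vertical axis, both in log2 units. The 12 red points, genes among the 50 smallest p at both doses, lie together at the lower left, between -0.56 and -0.97 at the lower dose and between -0.68 and -1.31 at the higher; the cloud of all genes shows no slope.

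The 5 uncalled genes among the 12 shared by both doses had adjusted p-values from 0.0863 to 0.234. Fech inserts iron into haem and had signals from 14794 to 25264 at 2 days and from 9673 to 16603 at 14 days. Its difference was -0.74 (SE 0.14, adjusted p = 0.0898). Tent5c, a poly(A) polymerase, had a difference of -0.79 (SE 0.15, adjusted p = 0.0915), and Fam220a -0.62 (SE 0.11, adjusted p = 0.0863). The arrays of both genes overlapped between the durations. Hbb-b2, a beta-globin gene with near-identical copies that the probes may not tell apart, had signals from 8321 to 17501 at 2 days and from 5206 to 8901 at 14 days. Its difference was -0.86 (adjusted p = 0.212), but -0.22 with the mean of all its probe sets. Car2, the carbonic anhydrase of red cells and other tissues, differed by -0.71 (adjusted p = 0.234).

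The red blood cell marker list named 17 genes, of which 9 were on the array under these symbols and 5 reached the level filter. These were Hbb-b2, Alas2, Slc4a1, Bpgm and Fech, while Hba-a1, Hba-a2, Epb42 and Klf1 stayed below the filter. The signal listed for the alpha-globin gene Hba-a1 ran from 44 to 167 at 2 days and from 35 to 282 at 14 days, and that for Klf1, a red cell transcription factor, from 55 to 556 and from 52 to 248. All 5 were lower, 3 of them called, against the 0.0632 percent of all genes, and their median was -0.81 against -0.00 for all genes. The filter used the mean of all 20 arrays and not the duration. A score per array, the mean log2 difference of the 5 genes from their mean over the 11 drug arrays, read 0.35, 0.55 and 0.65 at 3 mg/kg/day for 2 days and 0.08, -0.36 and -0.58 for 14 days. Scores at the higher dose were 0.39, 0.10 and 0.10 for 2 days and -0.50 and -0.77 for 14 days. The 14-day scores all lay below the 2-day scores. The chow scores, 0.42, -0.05 and -0.09, lay across both. For the 7 called genes, the same array was the lowest of all 20, namely the second 14-day array at 10 mg/kg/day.

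**Figure D3:**
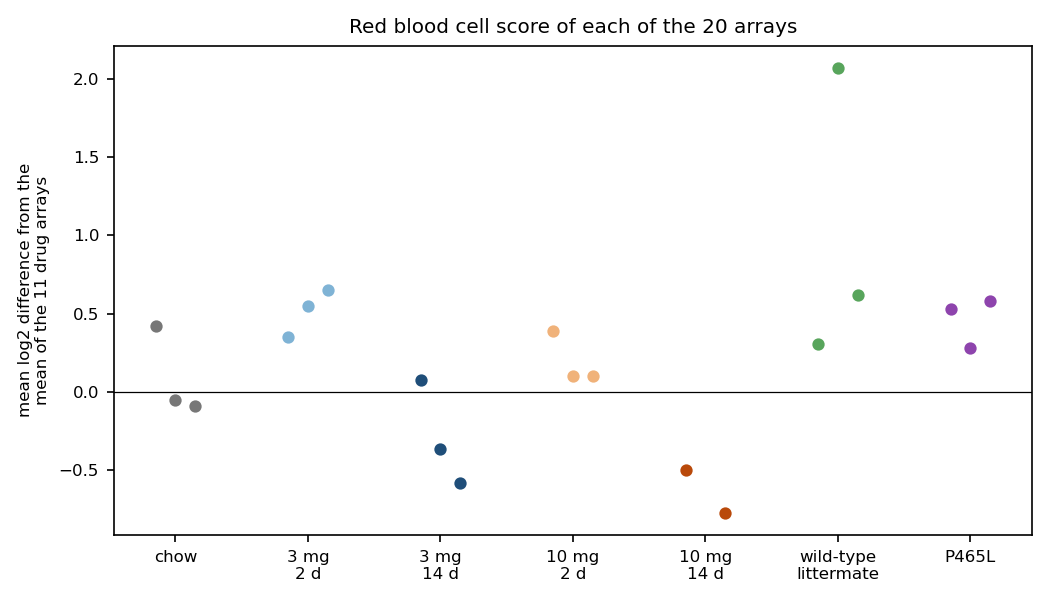
The vertical axis gives the red blood cell score of each of the 20 arrays, the mean log2 difference of 5 marker genes from their mean over the 11 drug arrays, by group on the horizontal axis. The 14-day arrays run from -0.77 to 0.08 and the 2-day arrays from 0.10 to 0.65, and 1 wild-type littermate array stands alone at 2.07.

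The wild-type littermate array at 2.07 belongs to the other experiment of the series, and it held the highest signal of all 20 arrays for each of the 7 called genes. It bears on the error estimate. A fit of all 20 arrays called 0 genes for duration, with 464 at an unadjusted p under 0.05. With that 1 array left out, a choice made after seeing the data, the fit of the other 19 called 9 genes, all lower, among them the same 7. Because that array was the highest for each of the 7, their return among the calls is no separate support. The differences themselves are those of the 11 arrays in every such fit. No single drug array carried the signs of the 7 genes: with each of the 11 left out in turn, all 7 stayed lower, from -1.33 to -0.68. The calls did depend on single arrays. Isg20 remained called in 10 of the 11 fits and had an adjusted p of 0.117 without the second 14-day array at 10 mg/kg/day, where 0 genes were called. The count was 1 with 1 of 6 other arrays left out: 2-day array B or C or 14-day array B or C at 3 mg/kg/day, or 2-day array A or B at 10 mg/kg/day, where letters give the order of the labels. It was 2 without 14-day array A at 10 mg/kg/day.

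Not every gene with a red cell role was lower. The groupings in this paragraph were drawn up after the data were seen and are given as values. Of 7 measured enzymes of haem synthesis, Alas2 and Fech were lower as above and Alad differed by -0.22, while Urod, Cpox, Ppox and Uros lay between -0.11 and 0.18. Of 8 genes of iron uptake and export, only Slc25a37 was past an unadjusted p of 0.05, and Tfrc, the transferrin receptor, differed by 0.00 (SE 0.11). Of 8 genes of the membrane and its skeleton, only Slc4a1 was past it, with Ank1, the ankyrin that anchors band 3, at -0.02. Of 7 red cell enzymes and antioxidants all 7 were lower, from -0.76 to -0.07, with a median of -0.12. Of these, 3 were past an unadjusted p of 0.05 and 1 was called. Of 8 genes tied to the last steps of red cell maturation, all 8 were lower and the median was -0.58, but Isg20, Mkrn1 and Tent5c entered that list because of their values here. In it were Trim10 at -0.79, Ube2o, a ubiquitin enzyme that clears proteins from reticulocytes, at -0.42, and the mitochondrial carrier Slc25a39 at -0.42, none called. Tspo2, a cholesterol-binding protein of red cell precursors, had signals from 511 to 1099 at 2 days and from 163 to 498 at 14 days. Its arrays did not overlap, and its difference of -1.10 (SE 0.27, adjusted p = 0.431) did not pass. Of 6 measured erythroid transcription factors 3 were higher and 3 lower, from -0.42 to 0.30, with a median of -0.08. Among the lower ones, Nfe2 differed by -0.42 (SE 0.21) and Tal1 by -0.22 (SE 0.12).

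Of the markers of other blood cells none was called. Of 16 measured platelet genes 13 were lower, with a median of -0.21. Alox12, the platelet lipoxygenase, had signals from 1375 to 1849 at 2 days and from 977 to 1358 at 14 days, without overlap (difference -0.48, SE 0.11, adjusted p = 0.329). Pf4, an abundant platelet chemokine, differed by 0.00 (SE 0.08), and Ppbp, stored beside it, by -0.32 (SE 0.14). The neutrophil protein gene S100a8 differed by -0.80 (SE 0.18, adjusted p = 0.267), mostly at the higher dose, where it was -1.19 against -0.41 at the lower. Its partner S100a9 differed by -0.29 (SE 0.24). Of 11 lymphocyte genes 8 were lower, with a median of -0.18, and Ighm, the heavy chain of immunoglobulin M, differed by -0.51 (SE 0.14, adjusted p = 0.631). The part of blood content in the difference of red cell genes was not tested.

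**Figure D4:**
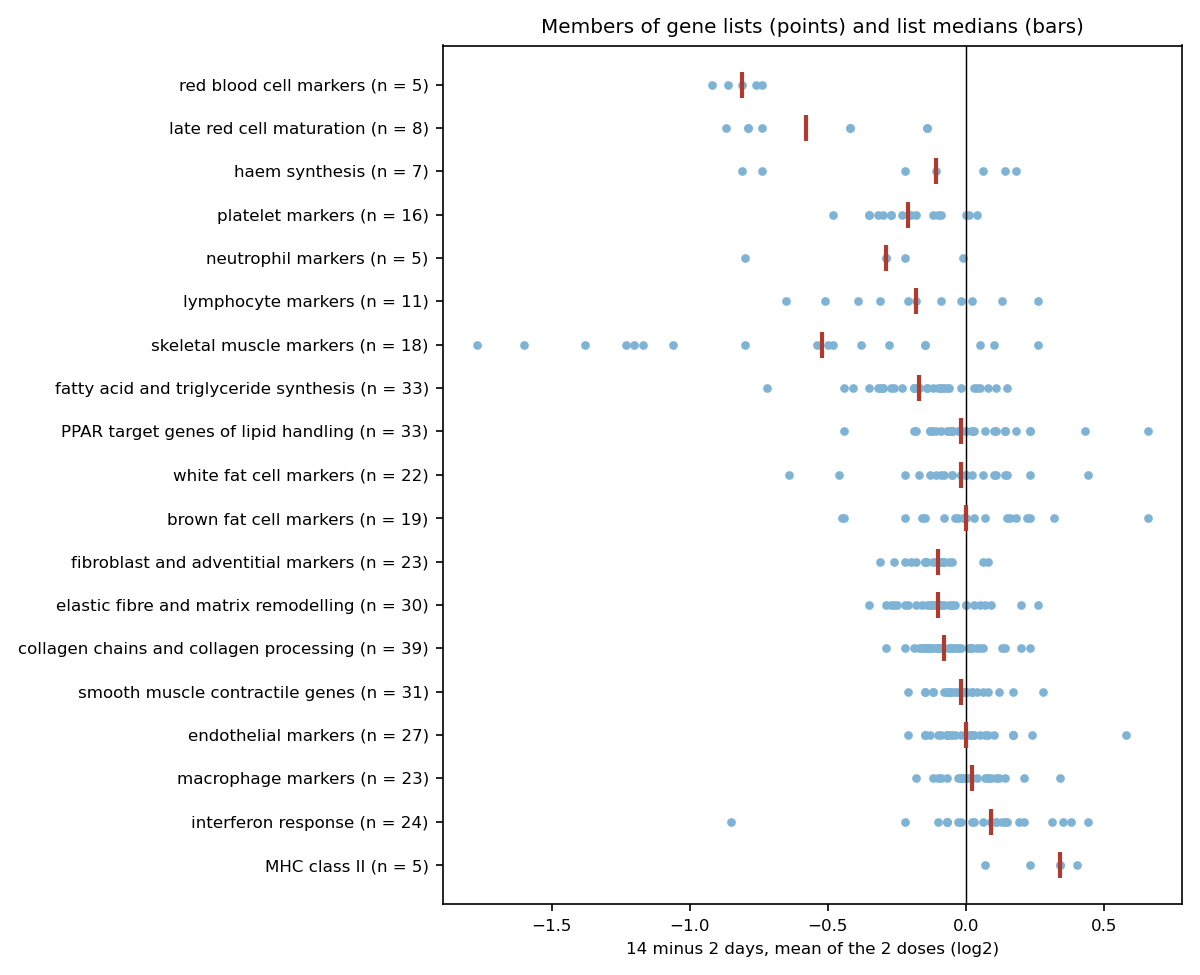
Each row is 1 gene list, each point 1 measured member and each bar the list's median; the horizontal axis is the difference of 14 minus 2 days averaged over the doses, in log2 units. Red blood cell markers stand at a median of -0.81, PPAR targets at -0.02, and the wall cell types between -0.10 and 0.02. The lists of haem synthesis, late red cell maturation, platelets and neutrophils were added after the data were seen.

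The genes that respond to rosiglitazone overlapped between the durations. In the fit of all 20 arrays, the mean of the 4 drug groups differed from chow in 48 genes, which is 0.433 percent, 26 higher and 22 lower. Of these 48 genes, 0 were called for duration, where 0.0632 percent of all genes were. At so low a share, a count of 0 among 48 genes says little. Of the 26 higher with the drug, 19 were higher at 14 than at 2 days, with a median of 0.06, and of the 22 lower with the drug 13 were lower at 14 days, with a median of -0.02. The score of the 26 genes ran from -0.30 to 0.30 at 14 days, from -0.39 to 0.08 at 2 days and from -1.12 to -0.83 on chow. Already at 2 days every drug array lay above every chow array in that score, but the genes were selected by that very contrast.

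Fabp4, which carries fatty acids inside fat cells, had signals from 89342 to 146543 (median 118020) at 2 days and from 99318 to 143288 (median 111200) at 14 days, where chow ran from 47529 to 78852. The 2 durations covered the same range, and the difference was -0.05 with a 95% interval of -0.32 to 0.23. Angptl4, an inhibitor of lipoprotein lipase, differed by -0.00 (interval -0.53 to 0.53), and Pdk4, the kinase that turns off pyruvate dehydrogenase, by 0.00 (interval -0.51 to 0.52). Cd36, the fatty acid receptor, differed by -0.06 (interval -0.46 to 0.35) and Lpl, lipoprotein lipase, by 0.02 (interval -0.29 to 0.33). The intervals of Angptl4 and Pdk4 still allow a difference of more than 0.50 in either direction.

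Acaa1b, a peroxisomal thiolase, had signals from 1601 to 7034 (median 4148) at 2 days and from 2206 to 9150 (median 5692) at 14 days, with chow from 632 to 1575. The durations overlapped nearly throughout, and the difference was 0.43 (interval -0.23 to 1.10). Rbp7, a retinol-binding protein of endothelium and fat, differed by 0.10 (interval -0.49 to 0.69). Btnl9, a butyrophilin-like membrane protein, had signals from 350 to 1041 at 2 days and from 663 to 1702 at 14 days, and differed by 0.43 (SE 0.20, unadjusted p = 0.0486, adjusted p = 1 in limma), with the other probe set at -0.32. Ephx2, soluble epoxide hydrolase, differed by 0.14 (SE 0.18), Cmbl by 0.16 (SE 0.20), Fbxo36 by 0.02 (SE 0.14) and Map3k12 by 0.16 (SE 0.12). Of genes lower with the drug, Haghl differed by -0.06 (SE 0.15), Fzd2 by 0.02 (SE 0.09) and Gstt3 by -0.20 (SE 0.12). Cyp2f2, a cytochrome P450, ran from 754 to 1173 on chow, from 228 to 872 at 2 days and from 134 to 377 at 14 days. The durations overlapped, and the difference was -0.62 (SE 0.26, unadjusted p = 0.0325, adjusted p = 1), with -0.94 at the lower and -0.30 at the higher dose.

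**Figure D5:**
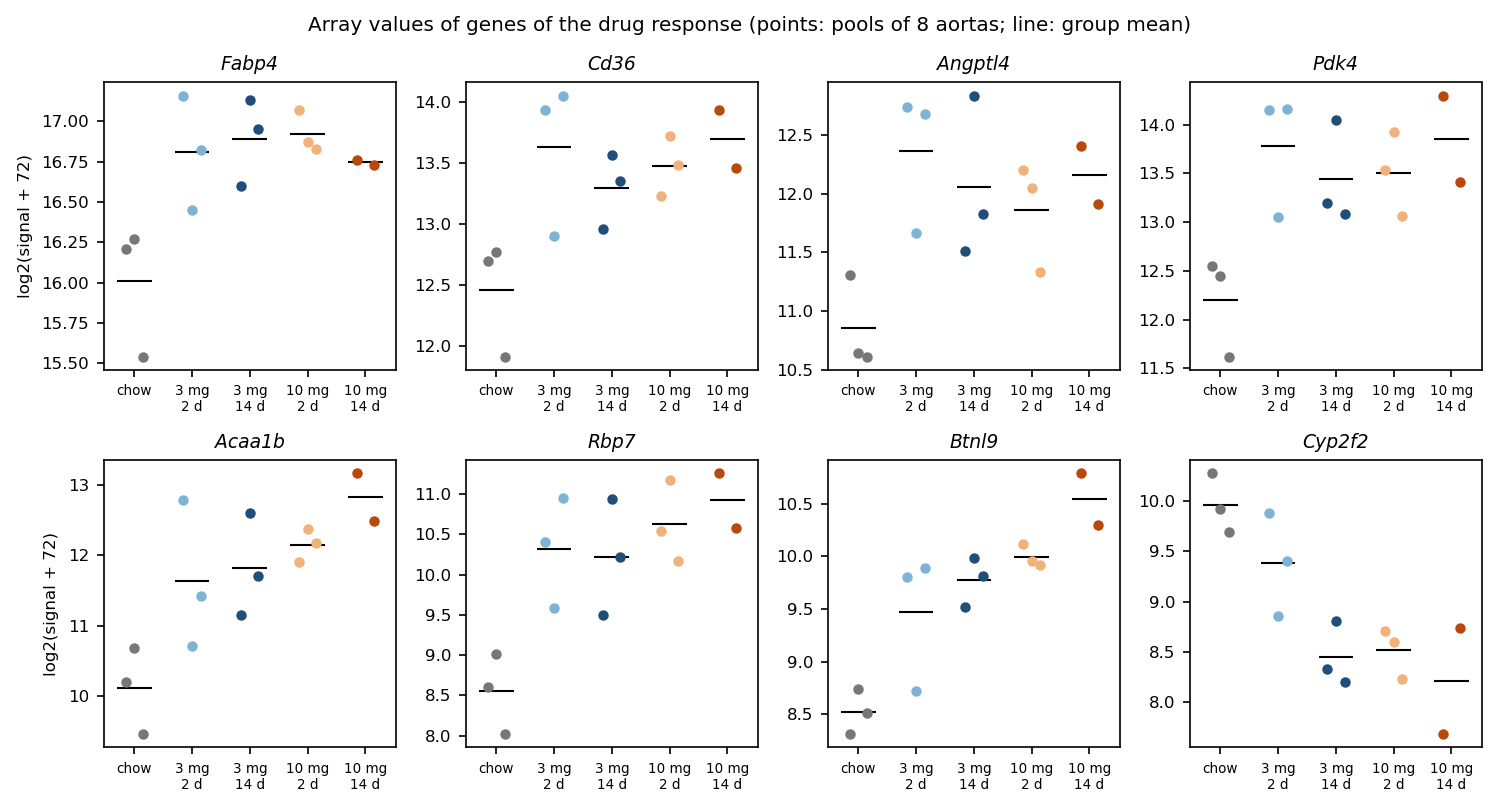
Each panel plots log2(signal + 72) of 1 gene of lipid handling or drug response on the vertical axis, by group on the horizontal axis. Points are single arrays and lines are group means. The genes were chosen as ones of drug response, so separation from chow is partly built into the choice. Every drug array lies above every chow array in 6 of the 8 genes, Btnl9 has 1 drug array within the chow range and Cyp2f2 has 1, and the 2-day and 14-day arrays overlap in each panel, as in Fabp4, with a difference of -0.05.

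The wider PPAR program was even when averaged over the doses. Of 33 measured PPAR target genes of lipid handling, 15 were higher and 18 lower at 14 days, none called, with a median of -0.02 that was -0.18 at 3 and 0.24 at 10 mg/kg/day. Fabp3, the fatty acid carrier of muscle and brown fat, had signals from 5390 to 9695 at 2 days and from 5878 to 16424 at 14 days (difference 0.66, SE 0.21, adjusted p = 0.945). It gave 0.38 with the mean of its probe sets, and 0.73 with the fat cell score as a covariate, where it passed (adjusted p = 0.0368). Slc27a1, a fatty acid transporter, differed by -0.44 (SE 0.15), and Elovl3, a fatty acid elongase of brown fat, by -0.44 (SE 0.19). Pparg itself differed by 0.10 (interval -0.45 to 0.66), Ppara by 0.16 (SE 0.22), Ppard by -0.33 (SE 0.20) and its partner receptor Rxra by -0.07 (SE 0.11). Of 22 white fat markers 9 were higher and 13 lower, with a median of -0.02 that was -0.22 at 3 and 0.16 at 10 mg/kg/day. Of 19 brown fat markers 10 were higher and 9 lower, with a median of 0.00 that was -0.17 at 3 and 0.26 at 10 mg/kg/day. Adipoq, the fat cell hormone adiponectin, differed by 0.06 (SE 0.20), and Ucp1, the uncoupling protein of brown fat, by -0.16 (SE 0.25), with Cidea, a lipid droplet protein, at 0.18 (SE 0.22). The fat cell score, from 15 white fat markers outside the PPAR target list, ran from -0.44 to 0.30 at 14 days. At 2 days it ran from -0.33 to 0.70, so the score spread widely within each duration.

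Genes that make fatty acids were lower at 14 days in most cases, and none was called from the groups alone. Of 33 measured genes of fatty acid and triglyceride synthesis 27 were lower and 6 higher, with a median of -0.17. That median was -0.28 at 3 and -0.05 at 10 mg/kg/day. At an unadjusted p under 0.05, 8 were lower and 0 higher, where 1.92 percent of all genes were lower and 1.46 percent higher. Fasn, fatty acid synthase, read 47746, 19739 and 37116 at 3 mg/kg/day for 2 days and 11683, 17564 and 17666 for 14 days. The higher dose gave 13562, 15729 and 13823 for 2 days and 13602 and 9174 for 14 days. High values were found in the 2-day arrays of the lower dose, and elsewhere the arrays overlapped. The difference was -0.72 (SE 0.19, adjusted p = 0.576), with -1.09 at the lower and -0.36 at the higher dose. Me1, malic enzyme, differed by -0.35 (SE 0.12), Scd1, the desaturase, by -0.41 (SE 0.17), Acly, ATP citrate lyase, by -0.23 (SE 0.10), Slc25a1, the citrate carrier, by -0.30 (SE 0.11) and Insig1, a sterol sensor partner, by -0.30 (SE 0.11). The fat cell scores of the 3 arrays at 3 mg/kg/day for 2 days were 0.70, -0.32 and 0.31, in the same order as their Fasn signals. With the fat cell score of each array as a covariate, the Fasn difference was -0.65 and passed (adjusted p = 0.00552). That score includes Thrsp, Agpat2 and Dgat2, which are also in the list of synthesis genes. The part of fat content in the Fasn difference was not tested.

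The cells of the vessel wall showed small differences. The defining markers of the aorta were bright in every array: Acta2, smooth muscle actin, ran from 107287 to 164875 at 14 days and from 111688 to 156984 at 2 days, and Pecam1, an endothelial adhesion molecule, from 9758 to 12704 and from 8794 to 13073. Acta2 differed by -0.06 (interval -0.29 to 0.17), Myh11, smooth muscle myosin, by 0.00 (interval -0.23 to 0.24), Pecam1 by 0.00 (interval -0.23 to 0.23) and Nos3, endothelial nitric oxide synthase, by -0.06 (interval -0.24 to 0.13). Of 31 smooth muscle contractile genes 12 were higher (median -0.02), and of 27 endothelial genes 14 were higher (median 0.00). Kdr, a receptor for vascular endothelial growth factor, differed by 0.58 (SE 0.21, adjusted p = 1), 0.12 at the lower and 1.04 at the higher dose.

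Fibroblast and matrix genes leaned lower at 14 days by small amounts, and none was called. Of 23 fibroblast and adventitial markers 21 were lower (median -0.10), of 30 genes of elastic fibres and matrix remodelling 24 (median -0.10), and of 39 collagen genes 28 (median -0.08). Dpt, dermatopontin of the adventitial matrix, had signals from 29154 to 38170 at 2 days and from 21815 to 29086 at 14 days. Its arrays did not overlap, and it differed by -0.31 (SE 0.10, adjusted p = 0.984). Cd34, carried by adventitial stromal cells and endothelium, differed by -0.26 (SE 0.09), Col1a1, a chain of type I collagen, by -0.29 (SE 0.09), Eln, elastin, by -0.27 (SE 0.10), Timp1, an inhibitor of matrix proteases, by -0.21 (SE 0.08) and Mmp14, a membrane-bound matrix protease, by -0.26 (SE 0.11), which was -0.06 with the mean of its probe sets.

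Genes were also compared by whether their arrays overlapped. Of the 7 called genes Isg20 alone had arrays without overlap, and no other gene without overlap passed the test. All 5 arrays at 14 days were below all 6 at 2 days in 20 genes, 0.18 percent, and above in 13 genes, 0.117 percent. The clearest of the higher ones by p was Irgm2, an interferon-inducible GTPase, with signals from 1212 to 1973 at 2 days and from 1995 to 2571 at 14 days (difference 0.50, SE 0.12, adjusted p = 0.431). Its chow arrays ran from 1943 to 3308, so the 14-day arrays lay in the range of chow. Related interferon-inducible GTPases gave 0.44 (Igtp, SE 0.11) and 0.38 (Gbp2, SE 0.11), while Rsad2, an antiviral enzyme induced by interferon, gave -0.85 (SE 0.22, adjusted p = 0.531). Of 24 interferon response genes 16 were higher and the median was 0.09. The other 11 named genes higher without overlap were Phc3 at 0.43, a Polycomb protein, Zcchc2 at 0.41, Kat6a at 0.27, a histone acetyltransferase, Sfxn4 at 0.50, Ppl at 0.32, Ap4b1 at 0.42, Apbb2 at 0.29, Galnt6 at 0.82, Usp12 at 0.28, Hoxa5 at 0.20 and Ccnh at 0.19. Of the 20 genes lower without overlap, 12 are named here, taken by p: Isg20, Alox12, Tspo2 and Dpt as above, and Pafah2 at -0.50, Triobp at -0.28, Marchf3 at -0.50, Rad51d at -0.51, Ctse at -0.51, Ksr1 at -0.48, 2500002B13Rik at -0.65 and Rfc3 at -0.52. Some of these values hung on the choice of probe set: with the mean of all probe sets of a gene, Kat6a gave -0.12, Apbb2 0.11, Marchf3 -0.20, Rad51d -0.05 and Ksr1 -0.02. A larger offset gave 0.53 for Galnt6 and -0.40 for 2500002B13Rik.

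At single doses the genes with the smallest p were mostly those called over both doses, and none passed. At 3 mg/kg/day the 5 smallest p belonged to Isg20, Mkrn1, Slc4a1, Alas2 and Dhrs11, the last with a difference of -0.73. At 10 mg/kg/day they belonged to Isg20, Slc25a37, Ube2c, Myoz1 at -1.04, a protein of the muscle Z-disc, and S100a8. For the interaction they belonged to genes with opposite signs at the doses: Zfp691 was -1.40 at 3 and 0.74 at 10 mg/kg/day, Mettl18 0.62 and -0.82, Tsc22d3, a glucocorticoid-induced gene, -0.63 and 0.25, Pfkfb3, an activator of glycolysis, -0.23 and 0.58, and Fkbpl -0.70 and 0.38. Over both doses 15 of 18 measured skeletal muscle markers were lower and 3 higher, none called, with a median of -0.52. At an unadjusted p under 0.05 in limma, 7 were lower and 0 higher, where 1.92 percent of all genes were lower and 1.46 percent higher. The median of these markers was -1.17 at 10 mg/kg/day, against -0.05 at 3 mg/kg/day. Tnni2, a fast muscle troponin, ran from 208 to 2975 at 2 days and from 13 to 1315 at 14 days, and from 35 to 2600 on chow. The skeletal muscle score, an indicator of tissue next to the vessel, ran from -0.87 to 0.70 at 14 days and from -0.70 to 1.30 at 2 days. Over both doses the durations thus overlapped, as they did at 3 mg/kg/day. At 10 mg/kg/day they did not, with 0.65, 1.30 and -0.40 at 2 days and -0.59 and -0.87 at 14 days. The part of muscle in the difference of Myoz1 was not tested.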

How the data were processed

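Messenger RNA of mouse aortas was measured on Affymetrix GeneChip arrays, with 1 array per pool of 8 aortas. The deposited intensity values were linear signals per probe set that the authors made with MAS5, per the submitters' processing notes; its version is not given in the sources used here. In the files each array had a mean of 1500 once the lowest and highest 2 percent of probe sets were set aside, which assumes that most signal did not differ between arrays. Median signals of the 11 arrays ran from 321.3 to 450.7, and arrays of 1 group correlated at 0.964 to 0.982 across genes. The ratio of 3' to 5' signal ran from 0.84 to 0.96 at 2 days and from 0.90 to 0.98 at 14 days for Gapdh, and from 1.18 to 1.24 and from 1.18 to 1.35 for Actb. The number of arrays limits the precision.

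A gene was represented by its brightest probe set, judged by the mean of the 20 arrays, among probe sets that name 1 gene. Genes whose mean reached the 50th percentile of all probe sets, a signal of 352, were tested, which left 11081. The values were log2(signal + 72). A mean per group was fitted to the 11 arrays with limma 3.58.1 in R 4.3.3 (lmFit, eBayes with a trend, 7 residual and 8.0 prior degrees of freedom). The duration difference was the mean of the 14 minus 2 day differences at both doses. Tests were two-sided and p-values were adjusted over all genes by Benjamini-Hochberg. The scripts were tested on simulated data.

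Array letters did not pair the arrays: over 15 pairs of the same letter in different groups, r of the deviations from group means ran from -0.29 to 0.26 with a median of -0.05. The named genes were the called genes, up to 12 non-overlapping genes in each direction, the 5 smallest p at each dose and for the interaction, the leading members of gene lists, a set of PPARγ and vessel genes, and the 8 genes with the smallest p against chow; Cfd is not analysed here, and red cell, platelet and neutrophil genes were added to it. The comparison and the lists were chosen with earlier results of these data known. Gene positions are from a RefSeq gene table on GRCm38.p6. Alternatives covered the offset, the filter, the normalization, the probe set, the arrays in the fit, the variance model, the block and leaving out each array. Tables and figures were made with Python 3.11.15, pandas 2.3.3 and matplotlib 3.10.9.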

Additional observations from a re-analysis of the deposited data

Results flagged for a closer look

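Among genes named here and list scores, 300 groups of 5 or 6 arrays were searched for a lowest or highest array that stood far from the others, and 17 were found, where chance gives about 15. Values are log2(signal + 72), or for lists the mean log2 difference from the mean of the 11 drug arrays.

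At 2 days, the first array of 3 mg/kg/day was highest for Rxra at 11.87, where the next array was at 11.49, and for the scores of oxidative phosphorylation at 0.44 (next -0.05) and the mitochondrial ribosome at 0.27 (next -0.02). The second array of that group was lowest for Btnl9 at 8.72 (next 9.80). The third was highest for Ppbp at 13.78 (next 13.33) and the interferon response score at 0.22 (next -0.01), and lowest for Dbp at 13.51 (next 14.52). The third array of 10 mg/kg/day was lowest for Car2 at 10.78 (next 11.39) and for the score of insulin and IGF signalling at -0.14 (next 0.02).

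At 14 days, the first array of 10 mg/kg/day was highest for Myh6, the heart muscle myosin, at 11.36 (next 9.09), highest for the cardiac muscle score at 0.71 (next -0.02), and lowest for Arntl at 7.99 (next 9.68). The second array of that dose was lowest for Me1 at 12 (next 12.45). At 3 mg/kg/day, the third array was highest for Ighm at 10.91 (next 10.39), the first was highest for Ccnh at 12.56 (next 12.37), and the second was lowest for Ctse at 9.10 (next 9.67) and Dbp at 14.05 (next 14.73).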

How the results depend on the processing

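The 7 genes called for duration were all lower under each alternative run, but their number moved. It was 1 with no level filter, with quantile normalization or with the mean of all probe sets of a gene, 0 with all 20 arrays, with no variance trend or with no dose in the model, 12 with array weights or with the fat cell score as a covariate (1 of those higher), 6 to 10 under the other settings of offset, filter, centring, probe set, fold and robust moderation, and 5 with the chow arrays added. With the array letter as a replicate block it was 3. Arrays of the same letter gave no sign of a pairing, but so few arrays per group cannot exclude it. Leaving out 1 array at a time gave 0 to 8. At 3 mg/kg/day the count of 0 became 1 with array weights, 2 with the fat cell score, and 0 to 1 with 1 array left out; at 10 mg/kg/day it was 2 when that dose was fitted alone and 0 otherwise, and for the interaction it was 0 in each fit. Fech and Tent5c passed with median centring, array weights, the fat cell score and without the outlying wild-type littermate array. Fasn and Fabp3 passed with the fat cell score only. Fam220a passed in 2 of the alternatives and Hif3a in 1, with smallest adjusted p-values of 0.0367 and 0.0294 in limma. Of the named genes' values, 49 changed sign, all in genes that were not called. These were Cd36 at 0.10 with array weights and 0.01 with the fat cell score, and Fabp4 at 0.06 with array weights, 0.01 with the mean of probe sets and 0.04 with quantile normalization. With median centring Lpl, Fbxo36 and Fzd2 were each at -0.02. Fzd2 was also at -0.02 with the brightest probe set of the 11 arrays, and Fbxo36 at -0.02 with array weights. With the mean of probe sets Fbxo36 was at -0.15, Kat6a at -0.12, Map3k12 at -0.03 and Rxra at 0.07. With 1 array left out, Fabp4 ran from -0.14 to 0.04, Cd36 from -0.24 to 0.06, Lpl from -0.12 to 0.11, Rbp7 from -0.08 to 0.28, Pparg from -0.14 to 0.33, Ppara from -0.06 to 0.31, Adipoq from -0.11 to 0.22, Ucp1 from -0.37 to 0.02, Haghl from -0.18 to 0.04, Hspa1a from -0.08 to 0.26, Arntl from -0.83 to 0.11, Dbp from -0.11 to 0.29, Fzd2 from -0.03 to 0.07 and Fbxo36 from -0.17 to 0.21. With the same sign, the larger offset took Cyp2f2 to -0.41 and Tnni2 to -1.10, and array weights took Scd1 to -0.26, Slc27a1 to -0.28 and S100a9 to -0.15. The causes were not tested. With 5 arrays against 6, the difference of a single gene whose interval holds 0 cannot be told from 0.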

Other observations

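MHC class II genes, which present peptides to helper T cells, stood higher at 14 days without a call. All 5 measured genes were higher, with a median of 0.34 that was 0.11 at 3 and 0.52 at 10 mg/kg/day. Cd74, the invariant chain, had signals from 10344 to 15281 at 2 days, from 11660 to 18301 at 14 days and from 14099 to 25597 on chow (difference 0.34, SE 0.12, adjusted p = 1 in limma). H2-Ab1 differed by 0.40 (SE 0.15) and H2-Eb1 by 0.34 (SE 0.14). Of 23 macrophage markers 14 were higher, with a median of 0.02.

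Genes of the circadian clock varied between arrays more than between durations. Arntl, a core activator of the clock, differed by -0.36 (SE 0.36), Per2, a repressor, by 0.20 (SE 0.19) and Dbp, a clock output, by 0.13 (SE 0.23), and of 21 clock genes 13 were higher with a median of 0.05. Hspa1a, an inducible heat shock chaperone, differed by 0.07 (SE 0.21). Hif3a, a hypoxia-inducible factor, had signals from 1834 to 2848 at 2 days and from 1502 to 1952 at 14 days (difference -0.51, SE 0.11, adjusted p = 0.242). Of 76 mitochondrial ribosome genes 55 were higher, with a median of 0.04, and of 79 oxidative phosphorylation genes 44 were higher, with a median of 0.02. Probe sets that name several genes or none, tested apart, gave 0 calls of 3130 in limma, with 90 at an unadjusted p under 0.05, a median of 0.060 and 65 percent higher.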
